A study of Homo sapiens with 7 samples.

Results

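The genes described here belong to homologous recombination, the pathway that repairs DNA double-strand breaks by copying an intact sister sequence. They were chosen by name as 9 genes (BRCA1, BRCA2, PALB2, BARD1, RAD51C, RAD51D, XRCC2, XRCC3 and RBBP8). On the array, 19775 genes had a single-gene probe set. Of the 9, 7 had between them 12 such probe sets. The expression of BRCA2 and RBBP8, which had none, was not analysed here, and only the sequences around their start sites were searched. The measured genes reached the floor, the pooled median intensity of 21.35, on each of the 7 arrays. Each gene is represented by its brightest probe set, and the others serve as a check.

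The cells were HSC-3, an established line of human oral squamous carcinoma. The control cells were kept at 37 °C without heating. The other cells were heated for 90 min at 42 °C or 44 °C and collected after 0, 6 or 12 h of recovery at 37 °C. Each of the 7 conditions was measured on 1 Affymetrix GeneChip expression array, so no difference below has a replicate check and no p-value is given. The number of arrays limits the precision. In a bulk RNA sample, fewer cells that make a transcript and less of it per cell cannot be told apart.

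The arrays differed in overall level, with median log2 shifts from the control of -0.17, 0.28 and 0.17 at 42 °C (0, 6 and 12 h) and 0.33, -0.17 and -0.45 at 44 °C. A gene is therefore said to have risen or fallen only where it passed 2-fold (1 log2 unit) under 3 scalings: the deposited values, quantile-normalized values, and values shifted by the median differences above. The only repeat measurement on an array is the set of probe sets of the same gene, which share the RNA and the hybridisation. Their log2 differences within a comparison had a standard deviation of 0.279 to 0.421 where the brighter of the 2 arrays reached 4 times the floor, and of 0.468 to 0.570 below that. HSPA6, the strictly heat-inducible HSP70, read 4.8 in the control, under the floor. It read 12566 directly after 42 °C and 5143 directly after 44 °C. The heat-response genes checked were HSPA6, DNAJB1, HSPH1 and BAG3. All 4 rose at 42 °C, 0 h, where 1.71% of all genes did. At 44 °C, 0 h, 2 of the 4 rose, HSPA6 and DNAJB1, where 2.60% of all genes did. All 5 squamous epithelial markers measured, among them the keratins KRT5 and KRT14, were above the floor on every array, whereas the leukocyte marker PTPRC and the endothelial markers CDH5, VWF and KDR were below it on every array. Other markers of those cell types read low but not always under the floor: ITGAM (22.0 to 36.6) and PECAM1 (30.6 to 51.2) reached it on all 7 arrays, CD14 on 4 and CD3E on 2. Of the 6 fibroblast markers, only COL1A1 was above the floor on every array, at 139 in the control and 204 to 307 on the heated arrays.

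In homologous recombination, a broken end is first trimmed to a single strand, a step in which BRCA1 acts with its partner BARD1 and with RBBP8 (CtIP). PALB2 then bridges BRCA1 to BRCA2. RAD51C, RAD51D, XRCC2 and XRCC3 belong to one gene family, and their complexes act in the later steps, in which the single strand pairs with the intact copy. RAD51C, RAD51D and XRCC2 act in one complex with RAD51B, and RAD51C and XRCC3 form another. Mild heat is known to impair this pathway and to lower BRCA2 protein. The arrays measure transcripts, not proteins.

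The stretches before the start sites of 4 genes are shown because these genes were the ones that stood at least 2-fold below the control at 44 °C, 12 h as deposited. Sequences are from RefSeq (GRCh38.p14), 150 bases up to the annotated start, 5′ to 3′ on the gene's strand. Capitals mark a match to an E2F motif (the letters TTCCCGC, or its variants written TTGGCGC, then TTCGCGC and finally TTGCCGC) or to a cyclic AMP response element (TGACGTCA) on either strand. PALB2 is at chr16:23641311-23641460, BARD1 at chr2:214809684-214809833, XRCC2 at chr7:152676142-152676291 and BRCA1, at the more downstream of its annotated starts, at chr17:43125365-43125514, all on the minus strand.
PALB2: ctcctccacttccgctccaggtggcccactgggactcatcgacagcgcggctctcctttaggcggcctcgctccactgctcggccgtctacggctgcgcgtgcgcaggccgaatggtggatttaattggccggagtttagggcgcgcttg
BARD1: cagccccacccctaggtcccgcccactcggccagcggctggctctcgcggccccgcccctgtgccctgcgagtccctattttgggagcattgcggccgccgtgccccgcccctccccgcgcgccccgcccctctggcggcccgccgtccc
XRCC2: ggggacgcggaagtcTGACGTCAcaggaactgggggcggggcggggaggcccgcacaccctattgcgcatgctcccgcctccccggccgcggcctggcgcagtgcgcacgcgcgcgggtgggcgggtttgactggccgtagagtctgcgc
BRCA1: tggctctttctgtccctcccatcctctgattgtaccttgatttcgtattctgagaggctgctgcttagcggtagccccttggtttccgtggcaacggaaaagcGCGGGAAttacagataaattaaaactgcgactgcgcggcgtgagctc

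Over the window from 250 bases before to 50 bases after the start, 6 of the 13 windows of the 9 genes held an E2F match, where 13% of 35116 such windows do. They belonged to BARD1, BRCA1, RAD51D, XRCC2 and XRCC3. Counted from the start, the E2F match of BRCA1 began at base -47, and those of BARD1 and XRCC2 began after it, at bases 5 and 22, outside the stretches printed. The cyclic AMP response element was in 3 of the 13 windows, those of RAD51C and XRCC2, and 1.8% of all windows hold it. The 2 windows of RAD51C overlap and share 1 such site, and the 2 windows of RAD51D overlap and share 1 E2F match. Counted by gene, 5 of 9 held an E2F match and 2 of 9 the cyclic AMP response element. None of the 13 windows held the letters of a heat shock element (GAANNTTC or TTCNNGAA), which 13.5% of all windows hold. These matches are letters in a window and describe no binding. The motifs and the genes shown were chosen after the data had been seen.

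PALB2, the bridge between BRCA1 and BRCA2, read 286 in the control. At 42 °C it read 81.7, 270 and 312 after 0, 6 and 12 h, and at 44 °C it read 237, 215 and 132.6. The 42 °C, 0 h array was the lowest and the 44 °C, 12 h array the next, and as deposited each was separated from its upper neighbour by 0.70 log2 units, more than the probe set spread. Under the other scalings the 42 °C, 0 h array still stood apart, by 0.95 and 0.97, but the 44 °C, 12 h array lay only 0.05 and 0.06 under the next, within that spread. The other 5 arrays lay between 215 and 312 as deposited, with neighbours 0.08 to 0.19 apart. PALB2 has 1 probe set, so no second probe set checks it.

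BRCA1, a ubiquitin ligase and scaffold of the repair complexes, read 501 in the control, 384, 330 and 470 at 42 °C and 388, 407 and 237 at 44 °C. Its control value was the highest of the 7 under every scaling. As deposited the 44 °C, 12 h array was the lowest, 0.48 log2 units under the next. Under both other scalings the 42 °C, 6 h array was the lowest instead, and no neighbours differed beyond the probe set spread. Its second probe set read 243 in the control and was lowest at 42 °C, 6 h (156), with 162 at 44 °C, 12 h. That probe set carries the suffix that Affymetrix gives where probes may also bind other sequences.

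BARD1, the obligate partner of BRCA1 in the ubiquitin ligase, read 476 in the control, 243, 626 and 415 at 42 °C and 398, 276 and 192 at 44 °C. The 3 lowest arrays were 44 °C, 12 h, 42 °C, 0 h and 44 °C, 6 h, in that order under every scaling. As deposited a gap of 0.53 log2 units parted them from the 4 others, but the same gap was 0.07 and 0.04 under the other scalings, within the probe set spread. Its other probe sets were also below their control values (298 and 68.8) at 42 °C, 0 h (130 and 52.9), at 44 °C, 6 h (151 and 39.2) and at 44 °C, 12 h (130 and 49.2). As deposited all 3 probe sets were highest at 42 °C, 6 h.

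**Figure D1:**
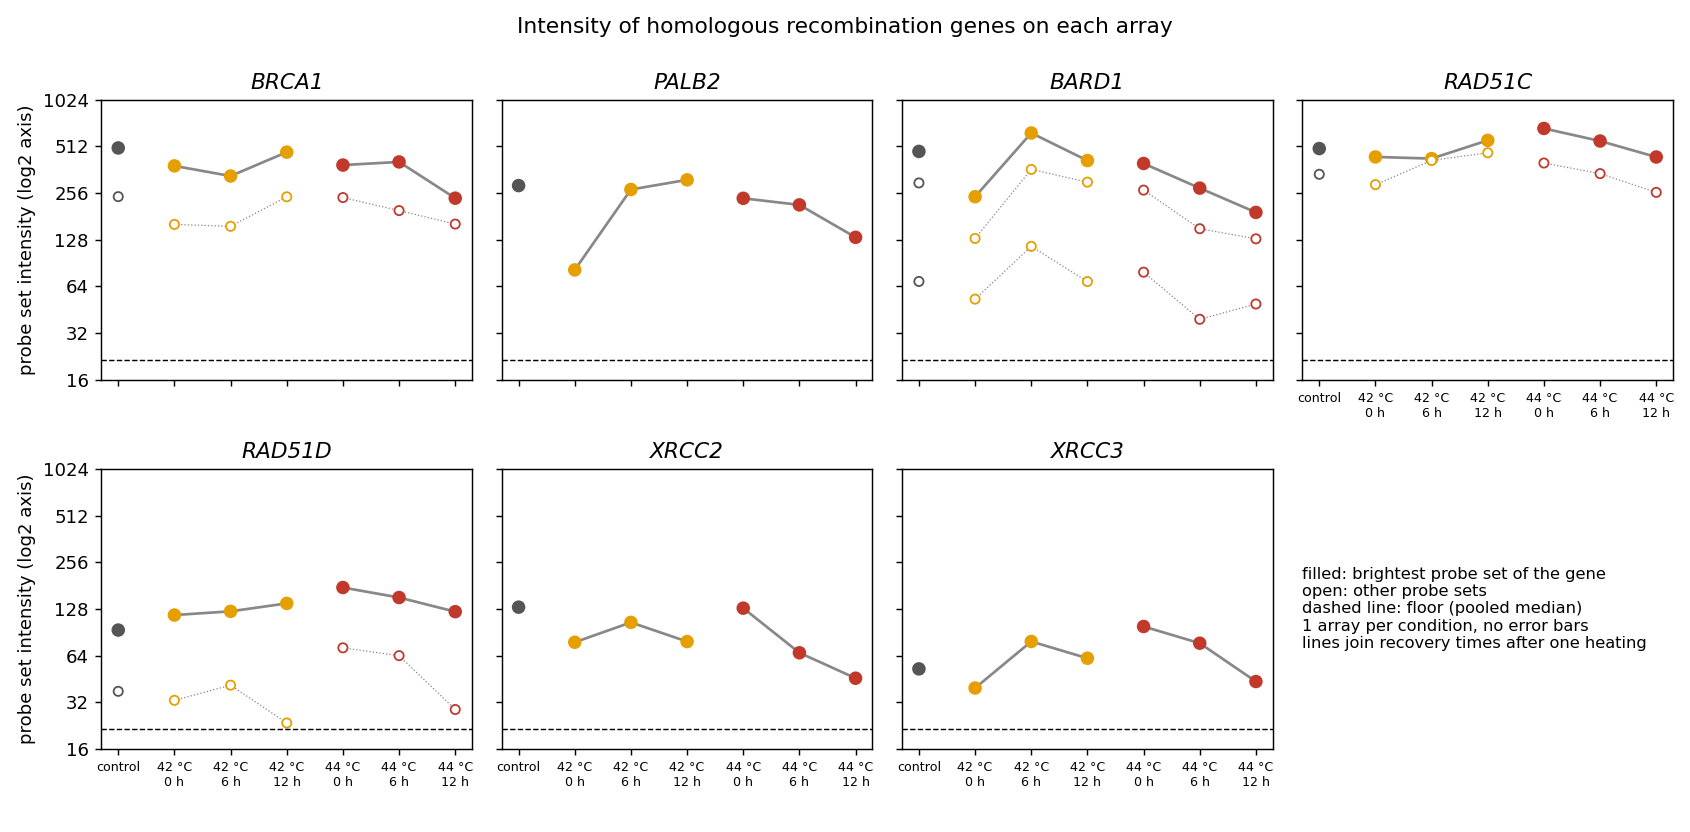
Intensity of each probe set of the 7 measured genes on each of the 7 arrays, on a log2 axis, with control in grey, 42 °C in orange and 44 °C in red. Filled points are the brightest probe set, open points are the others, and lines join recovery times after one heating temperature. PALB2 is lowest at 42 °C, 0 h (81.7) and back at 270 by 6 h, whereas RAD51C stays between 428 and 669.

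RAD51C, which takes part in both complexes of its family, had the smallest range of the 7 genes (0.65 log2 units). It read 496 in the control, 438, 428 and 561 at 42 °C and 669, 555 and 438 at 44 °C, and as deposited no neighbours in order differed beyond the probe set spread. The lowest array under every scaling was 42 °C, 6 h, which lay 0.49 log2 units under the next under both other scalings. Its second probe set ranged from 259 to 466 and was instead lowest at 44 °C, 12 h.

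RAD51D, which joins RAD51C to XRCC2, had its lowest value in the control (93.5). It read 117, 123 and 139 at 42 °C and 176, 152 and 123 at 44 °C. Its 6 heated arrays were thus all above the control, by 0.32 to 0.91 log2 units as deposited, without passing 2-fold on any of them. The second probe set, dim at 23.5 to 71.8, was above the control at 44 °C, 0 h and 6 h by 0.93 and 0.76 log2 units but below it at 42 °C, 12 h and 44 °C, 12 h (-0.68 and -0.39), and also below it at 42 °C, 0 h (-0.19).

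XRCC2, another subunit of that complex, read 131 in the control, 78.0, 105 and 78.8 at 42 °C and 130, 66.7 and 45.7 at 44 °C. The 44 °C, 12 h array was the lowest under every scaling. Its gap to the next array was 0.55 log2 units as deposited and 0.36 and 0.16 under the other scalings, beside a spread of 0.468 to 0.570 for dim probe sets. The single XRCC2 probe set has the suffix for possible binding to other sequences. XRCC3, the partner of RAD51C in the other complex, was the dimmest relative to the floor. It read 52.5 in the control, 39.5, 78.9 and 61.5 at 42 °C and 98.6, 76.9 and 43.5 at 44 °C, and no neighbours differed beyond the probe set spread.

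At 42 °C, 0 h, PALB2 was the member that fell, 3.50-fold from 286 to 81.7 (-1.81 log2 units as deposited, -1.62 quantile-normalized and -1.64 median-shifted). Of all 13025 genes tested in this comparison, 1.71% rose and 3.63% fell, and 73 genes (0.560%) had a difference as low as that of PALB2 or lower. BARD1 stood at -0.97 (-0.82 and -0.80 under the other scalings) and its other probe sets at -1.19 and -0.38. XRCC2 stood at -0.75, XRCC3 at -0.41, BRCA1 at -0.38 and RAD51C at -0.18, and RAD51D at 0.32. The differences of 6 of the 7 genes were below 0 under every scaling, but that of RAD51C was close to 0 under the other scalings (-0.04 and -0.01). The share of all genes below 0 under every scaling was not counted. As deposited, the median of all genes tested was itself below 0, at -0.13, and the median of the 7 was -0.41. All comparisons with the control use the same control array, so an error on that array enters each of them.

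At 42 °C, 6 h, none of the 7 genes rose or fell, where 1.57% of all genes rose and 2.32% fell. PALB2 was at -0.08 log2 units from the control and BARD1 at 0.39. BRCA1 had the lowest difference, -0.60 as deposited and -0.92 after quantile normalization, with its second probe set at -0.64. At 42 °C, 12 h, again none rose or fell (1.13% and 1.67% of all genes). PALB2 was at 0.12, BRCA1 at -0.09, BARD1 at -0.20 and XRCC2 at -0.74. The median of the 7 was -0.08 at 6 h and 0.12 at 12 h, against 0.20 and 0.16 for all genes.

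Between 0 h and 6 h of recovery from 42 °C, PALB2 rose 3.31-fold (1.73 log2 units as deposited, 1.25 and 1.27 under the other scalings), where 4.15% of all genes rose and 1.24% fell. BARD1 was higher by 1.37 log2 units as deposited and by 0.92 and 0.91 under the other scalings, so it passed 2-fold on the deposited values alone (11.9% of all genes did). Its other probe sets were higher by 1.48 and 1.13. XRCC3 was higher by 1.0 as deposited, just short of 2-fold. BRCA1 stood at -0.22 in the same comparison and RAD51C at -0.04. From 6 h to 12 h no member rose or fell, where 1.17% and 1.10% of all genes did.

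**Figure D2:**
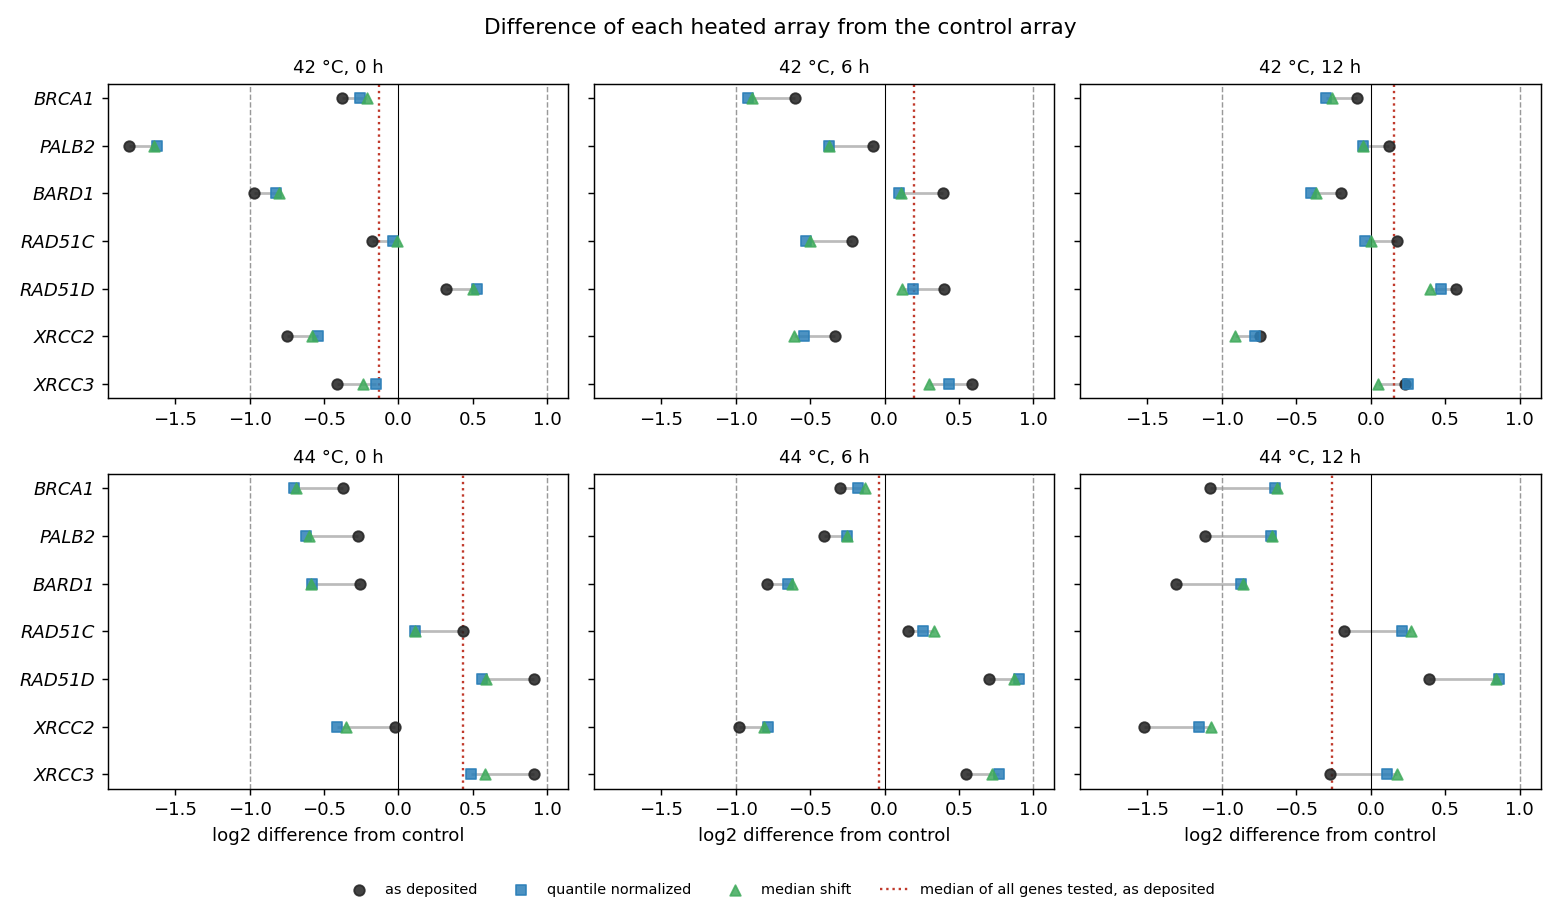
Log2 difference of each heated array from the control array for the 7 genes, as deposited (circles), quantile-normalized (squares) and median-shifted (triangles), with 2-fold as dashed lines and the median of all genes tested as a dotted line. PALB2 at 42 °C, 0 h and XRCC2 at 44 °C, 12 h are the points that lie past 2-fold under all 3 scalings.

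At 44 °C, 0 h, no member rose or fell, where 2.60% of all genes rose and 0.774% fell. BRCA1, PALB2 and BARD1 stood at -0.37, -0.27 and -0.26 log2 units, while the median of all genes tested was 0.43. After quantile normalization they stood at -0.70, -0.62 and -0.58. The other probe sets did not all lie below the control: as deposited, the second of BRCA1 was at -0.02 and those of BARD1 were at -0.15 and 0.20. RAD51D and XRCC3 were both at 0.91 as deposited, and at 0.56 and 0.49 after quantile normalization. RAD51C, at 0.43, sat at the median of all genes.

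At 44 °C, 6 h, no member rose or fell either (1.77% and 2.97% of all genes). XRCC2 stood at -0.98 log2 units and BARD1 at -0.79, with the other BARD1 probe sets at -0.98 and -0.81. RAD51D stood at 0.70 and XRCC3 at 0.55. BRCA1, PALB2, BARD1 and XRCC2 were below the control under every scaling, and RAD51C, RAD51D and XRCC3 above it under every scaling. Some of these values were close to 0. BRCA1 stood at -0.13 median-shifted, and RAD51C at 0.16 as deposited with its second probe set at 0.01. The share of all genes with the same sign under every scaling was not counted.

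At 44 °C, 12 h, XRCC2 fell 2.87-fold from 131 to 45.7 (-1.52 log2 units as deposited, -1.15 and -1.07 under the other scalings), where 1.97% of 13281 genes rose and 3.48% fell. Of these genes, 284 (2.14%) had a difference as low or lower. As deposited, BARD1 at -1.31, PALB2 at -1.11 and BRCA1 at -1.08 also passed 2-fold, which made 4 of 7 genes, where 10.6% of all genes were lower by that much. After quantile normalization these 3 stood at -0.87, -0.67 and -0.64 and did not pass. The second BRCA1 probe set was at -0.59, and the other BARD1 probe sets were at -1.20 and -0.48. RAD51C stood at -0.18, XRCC3 at -0.27 and RAD51D at 0.39, so the 7 genes spanned 1.92 log2 units on this array. The upper end is RAD51D, whose dim second probe set was at -0.39. The lower end is XRCC2, which has 1 probe set, dim on this array. RAD51C and XRCC3 changed sign between scalings, at 0.21 and 0.11 after quantile normalization. A shift of the whole array does not alter that span. The median of the 7 genes was -1.08 as deposited and -0.64 after quantile normalization, against -0.26 and 0.04 for all genes tested.

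Over recovery from 44 °C no member passed 2-fold under all scalings from 0 h to 6 h (0.274% of all genes rose and 1.40% fell) or from 6 h to 12 h (1.13% rose and 1.07% fell). From 6 h to 12 h the differences of all 7 genes were below 0 under every scaling, from -0.30 log2 units in RAD51D to -0.82 in XRCC3 as deposited. Quantile-normalized, those of RAD51D and RAD51C were -0.03 and -0.05, close to 0, and the third BARD1 probe set was higher, by 0.33 as deposited. As deposited, the median of the 7 was -0.55 against -0.23 for all genes, and the share of all genes below 0 under every scaling was not counted. From 0 h to 6 h every member but BRCA1 (0.07) was lower as deposited, where the median of all genes was -0.46. The second BRCA1 probe set was also lower, at -0.28. XRCC2 and BARD1 were lower in both steps under every scaling. XRCC2 stood at -0.96 and -0.55 as deposited and at -0.36 and -0.37 quantile-normalized. For BARD1 these were -0.53 and -0.52 as deposited and -0.07 and -0.22 quantile-normalized.

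The temperatures were then compared at each recovery time. These comparisons share their arrays with the ones above. At 0 h, PALB2 was 2.90-fold higher at 44 °C than at 42 °C, at 237 against 81.7. Its log2 difference was 1.54 as deposited, 1.04 median-shifted and 1.0 quantile-normalized, which is at the threshold. In this comparison 3.36% of all genes were higher and 0.677% lower. XRCC3 was higher by 1.32 as deposited, past 2-fold on that scale only (19.1% of all genes). BRCA1 stood at 0.02 as deposited and at -0.44 after quantile normalization, and its second probe set at 0.58 as deposited.

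At 6 h, none of the 7 genes passed 2-fold under all scalings (2.01% of all genes were higher and 4.81% lower). BARD1 read 276 at 44 °C against 626 at 42 °C, which is -1.18 log2 units as deposited and -0.75 and -0.73 under the other scalings, past 2-fold as deposited only (13% of all genes). Its other probe sets gave -1.27 and -1.56. RAD51C, RAD51D and BRCA1 were higher at 44 °C under every scaling, by 0.38, 0.30 and 0.30 as deposited. The second RAD51C probe set had the opposite sign, at -0.28.

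At 12 h, none passed either (2.12% of all genes were higher and 3.79% lower). PALB2 read 132.6 at 44 °C against 312 at 42 °C (-1.23 log2 units) and BARD1 192 against 415 (-1.11), both past 2-fold as deposited, as 16.9% of all genes were. After quantile normalization these differences were -0.62 and -0.47. By their brightest probe sets, BRCA1, PALB2, BARD1 and XRCC2 were lower at 44 °C under every scaling. RAD51C (-0.36 to 0.26), RAD51D (-0.18 to 0.44) and XRCC3 (-0.50 to 0.12) changed sign between scalings. The other probe sets, compared as deposited only, did not keep this division. The second of RAD51C was at -0.85, below the second of BRCA1 at -0.58. That of RAD51D was at 0.29, and those of BARD1 were at -1.22 and -0.48. The share of all genes lower under every scaling was not counted.

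**Figure D3:**
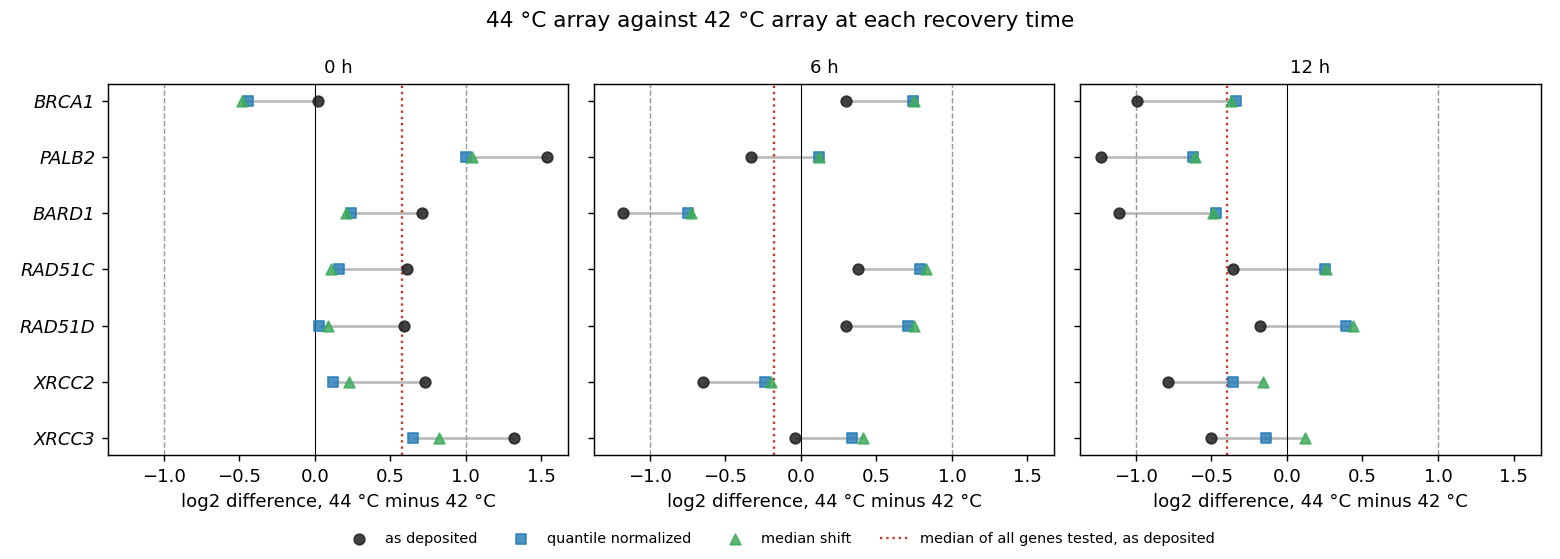
Log2 difference of the 44 °C array from the 42 °C array at the same recovery time for the 7 genes under the 3 scalings, with 2-fold as dashed lines and the median of all genes tested as a dotted line. PALB2 lies to the right at 0 h (1.54 as deposited) and to the left at 12 h (-1.23), and BARD1 lies to the left at 6 h (-1.18).

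Other genes of the pathway were taken from 4 lists, of break sensing and resection, strand exchange, BRCA1-associated complexes, and dissolution or resolution of the joined DNA molecules. Of 38 genes listed, 36 had a probe set. None of the 36 rose or fell at 42 °C at any time or at 44 °C, 0 h. Of all genes, 1.71%, 1.57% and 1.13% rose at 42 °C (0, 6 and 12 h) and 3.63%, 2.32% and 1.67% fell. At 44 °C, 0 h, 2.60% of all genes rose and 0.774% fell. At 44 °C, 6 h, 2 of the 36 fell, where 2.97% of all genes did. GEN1, a nuclease that cuts the joined DNA molecules apart, fell 2.74-fold from 173 to 63.1. RAD52, a strand-annealing protein, fell 2.60-fold from 59.4 to 22.8, close to the floor. At 44 °C, 12 h, GEN1 alone fell, 3.51-fold to 49.3, where 3.48% of all genes did. As deposited 6 of the 36 genes were lower by 2-fold, where 10.6% of all genes were. The median of the 36 was -0.18 at 42 °C, 0 h and -0.52 at 44 °C, 12 h as deposited, against -0.13 and -0.26 for all genes tested. After quantile normalization it was -0.08 and -0.13, against -0.01 and 0.04. Between temperatures at 0 h, RAD54L, a DNA motor protein, was 3.25-fold higher at 44 °C (685 against 211). RAD52 was 3.44-fold lower at 44 °C than at 42 °C at 6 h, and GEN1 3.15-fold lower at 12 h. Each was the only 1 of the 36 past 2-fold under all scalings in its comparison. Of all genes, 3.36% were higher at 0 h, and 4.81% and 3.79% were lower at 6 h and 12 h.

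In related lists, FANCF, a subunit of the Fanconi anaemia core complex, fell 2.81-fold at 42 °C, 0 h (59.6 against 167). It was the only 1 of 10 Fanconi anaemia genes to do so, where 3.63% of all genes did. It read 240 at 6 h, a 4.02-fold rise from 0 h (1 of the 10, against 4.15% of all genes). At 0 h it was 3.58-fold higher at 44 °C than at 42 °C (1 of the 10, against 3.36%). Of the end-joining genes, LIG4, the ligase of that pathway, fell 3.20-fold at 44 °C, 6 h and 3.47-fold at 12 h. At 6 h it was the only 1 of the 10 tested to fall, where 2.97% of all genes did. RIF1, which limits resection, fell 3.36-fold at 44 °C, 12 h, so 2 of the 10 end-joining genes tested fell there, where 3.48% of all genes did. None of 28 DNA replication genes or 20 mitosis genes rose or fell at 42 °C, 0 h or at 44 °C, 12 h. Of all genes, 1.71% rose and 3.63% fell at 42 °C, 0 h, and 1.97% rose and 3.48% fell at 44 °C, 12 h. The replication and mitosis medians were -0.12 and -0.35 at 42 °C, 0 h and -0.35 and -0.54 at 44 °C, 12 h. The medians of all genes were -0.13 and -0.26. On the deposited values alone, 2 of the 28 replication genes and 3 of the 20 mitosis genes were lower by 2-fold at 44 °C, 12 h, where 10.6% of all genes were. The replication gene GINS4 fell 2.55-fold at 42 °C, 12 h (124 against 316), 1 of the 28, where 1.67% of all genes fell. The mitotic kinase gene PLK1 was 3.24-fold higher at 44 °C than at 42 °C at 0 h (814 against 251). It was 1 of the 20 mitosis genes, where 3.36% of all genes were higher. From 0 h to 6 h after 42 °C PLK1 rose 3.11-fold, as did the mitosis genes KIF23 (2.93-fold) and TTK (2.80-fold). These were 3 of the 20, where 4.15% of all genes rose. In the end-joining list, PAXX was 2.96-fold higher at 44 °C than at 42 °C at 0 h (1 of 10 tested, against 3.36% of all genes). POLL at 42 °C, 6 h exceeded the control, which was under the floor, at least 2.53-fold (1 of 11, against 1.57%). LIG4 was 4.51-fold, RIF1 2.80-fold and POLL at least 2.53-fold lower at 44 °C than at 42 °C at 6 h (3 of 10, against 4.81%). At 12 h RIF1 was 3.47-fold, LIG4 3.45-fold and DCLRE1C 3.14-fold lower (3 of 11, against 3.79%).

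**Figure D4:**
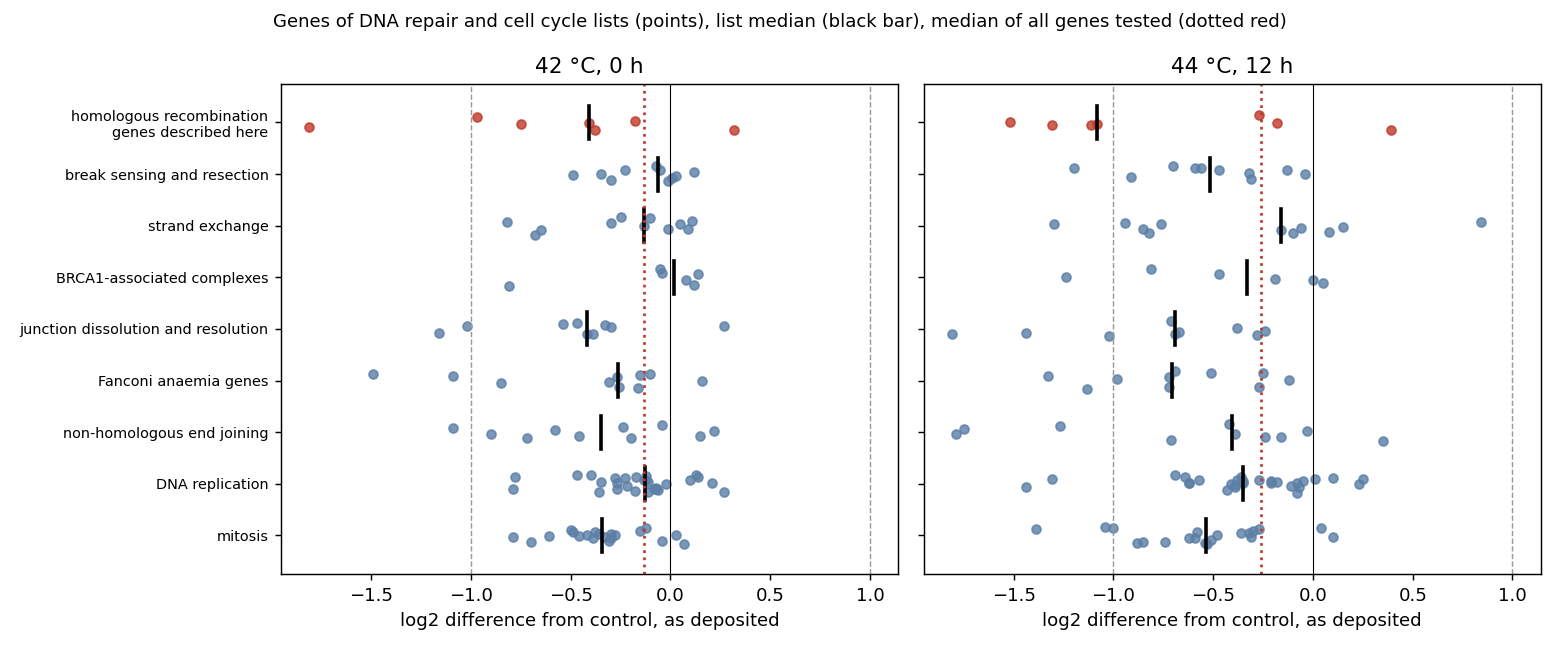
Log2 difference from control as deposited for each gene (points) of the homologous recombination genes described here and of 8 related lists, at 42 °C, 0 h and at 44 °C, 12 h, with the list median as a black bar and the median of all genes tested as a dotted line. The 7 genes have a median of -0.41 in the left panel and -1.08 in the right one, and in both panels their points spread from below -1 to above 0.

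The genes whose differences from the control were nearest to those of PALB2, the gene with the widest range (1.93 log2 units), were found among 7457 genes at 4 times the floor or more on every array. Likeness was the mean absolute distance over the 6 heated arrays. The nearest was LTV1, a ribosome assembly factor, at a distance of 0.149 log2 units, which read 625 in the control and 186 at 42 °C, 0 h. FJX1 (0.207), MOB2 (0.231), FANCE, another subunit of the Fanconi anaemia core complex (0.231), and EFNA1, the ligand ephrin-A1 (0.232), followed. FANCE read 290 in the control, 136 at 42 °C, 0 h and 286 at 6 h. All 6 differences share the control array, which enters every distance. Among the 7 genes themselves, the nearest of the other members to PALB2 was BARD1, at 0.37, and the farthest was RAD51D, at 1.14.

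**Figure D5:**
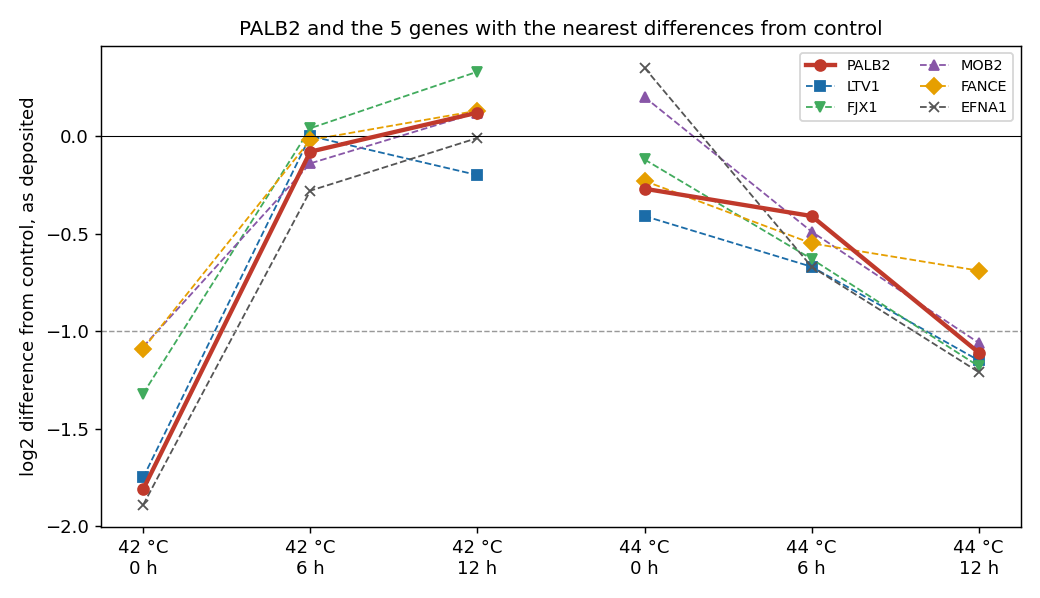
Log2 difference from control as deposited on the 6 heated arrays for PALB2 (red) and the 5 genes with the smallest mean absolute distance from it, with lines joining recovery times after one heating temperature. All 6 genes are below -1 at 42 °C, 0 h, and PALB2, at -1.81, lies between LTV1 (-1.75) and EFNA1 (-1.89).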

How the data were processed

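The table deposited by the authors gives a linear probe set intensity for 54675 probe sets on 7 arrays, and the algorithm and any scaling behind it are not given in the sources used here. All columns were used, with 0 columns of other samples. Array annotation, with symbols updated through RefSeq gene identifiers (GRCh38.p14), assigned 41097 probe sets to 1 gene and 1801 to several, and did not list 11777. Among probe sets of 1 gene only, the one with the highest mean stood for the gene. Values under a floor of 21.35, the pooled median, were raised to it, and log2 differences were taken for 13 pairs of arrays: 6 with the control, 3 between temperatures and 4 over recovery. A gene counted as tested where it reached the floor on either array. The median shift used the 20902 probe sets not under the floor on any array. With 1 array per condition no test was made. The steps from scaled values to calls were checked on simulated data for the 6 comparisons with the control. Alternatives were each scaling alone, no floor, a doubled floor, the mean of a gene's probe sets and a 1.5-fold threshold. Calls on the deposited values alone were added after seeing the data. The members and lists were chosen with earlier results of these data known. Named beside the members were, per list and comparison, up to 4 genes past 2-fold under all 3 scalings with the largest difference, the heat-response genes, and the 5 genes nearest to the member with the widest range. Python 3.11.15, numpy 2.4.6 and pandas 2.3.3 were used.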

Additional observations from a re-analysis of the deposited data

How the results depend on the processing

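The fall of PALB2 at 42 °C, 0 h, its rise from 0 h to 6 h, and the fall of XRCC2 at 44 °C, 12 h passed 2-fold under every scaling alone, without a floor, with a doubled floor and with the mean of probe sets, which for these genes is the same probe set. The higher PALB2 at 44 °C than at 42 °C at 0 h also passed, but at 1.0 log2 unit after quantile normalization it is at the threshold. On the deposited values alone, a choice added after seeing the data, 4 members were lower at 44 °C, 12 h in place of 1. Likewise 2 were higher at 44 °C than at 42 °C at 0 h, 1 was lower at 6 h and 2 at 12 h, and 2 were higher from 0 h to 6 h after 42 °C. At a 1.5-fold threshold under all scalings, the fallen members numbered 2, 1 and 1 at 42 °C (0, 6 and 12 h) and 2 and 4 at 44 °C (6 and 12 h), and 1 (RAD51D) had risen at 44 °C, 6 h. Of all genes, 10.6%, 7.41% and 6.03% fell by that much at 42 °C and 10.6% and 11.2% at 44 °C, and 6.77% rose at 44 °C, 6 h. At that threshold 2 were higher and 1 and 1 lower at 44 °C than at 42 °C (0, 6 and 12 h), and 2 were higher from 0 h to 6 h after 42 °C, where the shares of all genes were 12.5%, 12.5%, 11.3% and 11.3%.

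The median of the members moved by more than the probe set spread in these cases. At 44 °C, 12 h it was -0.64 quantile-normalized and -0.63 median-shifted. For 44 °C against 42 °C it was 0.16 and 0.21 at 0 h and -0.34 and -0.16 at 12 h, and 0.41 after the median shift at 6 h. Over recovery it was 0.0 and -0.03 from 0 h to 6 h after 42 °C, 0.28 and 0.22 from 0 h to 6 h after 44 °C, and -0.26 after the median shift from 6 h to 12 h after 44 °C. With the mean of probe sets it was -0.32 from 6 h to 12 h after 42 °C, against 0.17. RAD51D was the median gene both ways. Its brightest probe set stood at 0.17 in that comparison and its dim second probe set at -0.81 (23.5 against 41.2). No paired analysis was possible because each condition has 1 array. Some values lie under 4 times the floor (85.4). These are PALB2 at 42 °C, 0 h (81.7) and XRCC3 on every array but 44 °C, 0 h (98.6). XRCC2 was as dim at 42 °C, 0 h and 12 h (78.0 and 78.8) and at 44 °C, 6 h and 12 h (66.7 and 45.7). Probe sets of a gene differ more where both arrays of a comparison are that dim.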
